A study of Mus musculus with 24 samples.

Results

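Serpins are protease inhibitors that trap a serine or cysteine protease by offering it a bait loop, and the 7 genes described here are Serpinb2, Serpinb10, Serpinb8, Serpinb6a, Serpinb9, Serping1 and Serpina3g. They were picked by symbol from the 37979 genes of a table of RNA sequencing values from sorted mouse lung macrophages and monocytes, in which 68 symbols begin with Serpin. Of those 68 genes, 32 were at 0 in every library, 20 were above 0 but did not reach a mean of 1 FPKM (fragments per kilobase of transcript, scaled to the mapped fragments of the library) in any group, and 16 were tested. All 7 genes named were among the 16 tested. The 7 were proposed with their levels in these groups already seen, so every value and test below describes them and none is independent support for the choice.

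The table held 24 libraries in 8 groups of 3, from male C57BL/6 mice of 10 to 16 weeks. Tumour-bearing mice had received LLC-Luc cells, a Lewis lung carcinoma line with luciferase, in the left lung lobe, and their left lobe was taken. MacB3 (CD11b+, Ly6G-, CD64 high, CD11c+) was sorted at 3 weeks (MacB3-3wk) and 2 weeks (MacB3-2wk) of tumour growth. The series' design text gives the 2-week MacB3 samples the 3-week name, and the sample titles were followed, so every MacB3 time below rests on the titles. MacB1 (CD11b+, Ly6G-, CD64 low, CD11c+) came from naive mice (MacB1-N), whose lobes were all used. MacB2 (CD11b+, Ly6G-, CD64 intermediate, CD11c-) came from naive mice (MacB2-N) and from tumours of 2 weeks (MacB2-2wk) and 3 weeks (MacB2-3wk). MacA (SiglecF+, CD11c+) came from tumours of 2 weeks (MacA-2wk) and from naive mice (MacA-N). Each library pooled 3 to 5 mice, and per the labels the experiment was done 3 separate times.

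Libraries had 15599 to 18522 genes above 0. Relative depth, read from the smallest steps among weakly expressed genes, ran from 0.521 to 1, and absolute depth is unknown. All MacA libraries were run on lane 1, while replicates 1, 2 and 3 of each MacB group were run on lanes 2, 3 and 7, so population and lane cannot be told apart between MacA and MacB. Summed over 9 of 10 listed alveolar macrophage markers (Chi3l3 was not found), MacA libraries had 2694 to 5557 FPKM and MacB libraries 132 to 937 FPKM. One library stood apart: MacA-2wk replicate 3 had 442 FPKM of 8 fibroblast markers, 2 of which are the serpins Serpinf1 and Serpinh1, against 40.8 and 40.3 FPKM in replicates 1 and 2. Of 9 listed neutrophil markers, Ly6g, which the MacB gates used, was listed at 0 in every library, but 2 to 8 of the 9 were above 0 in each library, with sums of 19.8 to 226 FPKM.

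Clade B serpins are mostly intracellular. Serpinb2 is plasminogen activator inhibitor 2, which blocks urokinase and is a known product of monocytes and macrophages, and Serpinb10 (bomapin in humans) is a clade B member of blood-forming cells. The human counterparts of Serpinb8 and Serpinb6a inhibit furin and cathepsin G, and Serpinb9 protects cells from granzyme B. Serping1 is the secreted C1 inhibitor, which holds back the complement proteases C1r and C1s and the contact pathway, and Serpina3g is an interferon-inducible inhibitor of lysosomal cathepsins.

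Serpinb2, Serpinb10 and Serpinb8 lie side by side on chromosome 1 of GRCm38, on the plus strand, at 107511423 to 107535478, 107529003 to 107549271 and 107590006 to 107610484 in the GENCODE M21 annotation. Serpinb2 and Serpinb10 overlap by 6476 bases there, and 291 exon bases belong to both, out of 2349 for Serpinb2 and 3490 for Serpinb10. GENCODE types Serpinb10 as a polymorphic pseudogene, and the deposited table gives both genes the same locus. Reads in the shared exon bases could therefore be counted for either gene, and their separate levels are uncertain to that extent. Serpinb6a (33917918 to 34002794, minus strand) and Serpinb9 (33003250 to 33017957, plus strand) are on chromosome 13, Serping1 (84765387 to 84775444, minus strand) on chromosome 2 and Serpina3g (104236245 to 104241939, plus strand) on chromosome 12.

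Promoters of the 3 neighbours on chromosome 1 are shown because all 3 had their lowest means in MacA but not the same highest group. Serpinb2 and Serpinb10 had their highest means in MacB2-N and Serpinb8 in MacB2-2wk. The promoter of Serpina3g is shown as that of the interferon-inducible member. Each is the RefSeq window (GRCm38.p6) from 250 bases before to 50 bases after the start, at chr1:107511173-107511472, chr1:107528753-107529052, chr1:107589756-107590055 and chr12:104235897-104236196, all on the plus strand. Capitals mark matches to TGANTCA, the AP-1 motif, in the first 3 sequences, and to TTCNNNGAA, the GAS motif of STAT factors, in the first and last.
Serpinb2: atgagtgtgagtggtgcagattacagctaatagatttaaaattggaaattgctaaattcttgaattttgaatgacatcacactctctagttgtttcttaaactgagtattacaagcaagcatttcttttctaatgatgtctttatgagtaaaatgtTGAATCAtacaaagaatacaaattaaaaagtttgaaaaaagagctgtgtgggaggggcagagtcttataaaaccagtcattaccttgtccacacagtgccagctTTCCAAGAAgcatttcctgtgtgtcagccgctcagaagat
Serpinb10: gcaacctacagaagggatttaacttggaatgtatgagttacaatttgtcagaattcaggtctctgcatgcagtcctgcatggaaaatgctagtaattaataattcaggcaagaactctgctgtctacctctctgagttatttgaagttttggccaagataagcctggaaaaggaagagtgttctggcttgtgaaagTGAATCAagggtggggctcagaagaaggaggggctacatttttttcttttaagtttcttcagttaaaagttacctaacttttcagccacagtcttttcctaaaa
Serpinb8: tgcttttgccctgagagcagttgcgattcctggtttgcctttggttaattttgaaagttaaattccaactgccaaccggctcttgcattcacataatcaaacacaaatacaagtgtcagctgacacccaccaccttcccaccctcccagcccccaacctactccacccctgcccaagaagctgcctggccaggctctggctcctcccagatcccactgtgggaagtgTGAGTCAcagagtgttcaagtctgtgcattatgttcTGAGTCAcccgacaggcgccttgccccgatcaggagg
Serpina3g: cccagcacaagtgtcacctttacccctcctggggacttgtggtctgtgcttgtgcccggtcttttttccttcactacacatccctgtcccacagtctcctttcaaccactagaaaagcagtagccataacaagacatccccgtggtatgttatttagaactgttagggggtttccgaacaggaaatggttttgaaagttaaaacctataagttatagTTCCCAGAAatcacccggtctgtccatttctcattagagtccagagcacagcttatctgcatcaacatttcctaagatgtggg

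Both strands of 8 promoters of 6 of the 7 genes were searched, and Serpinb2 has a second listed start whose window overlaps the first. TGANTCA occurred in every window of Serpinb2, Serpinb10 and Serpinb8, and in 7.81% of all 32851 RefSeq promoters of this length. TTCNNNGAA occurred in windows of Serpinb2, Serpinb6a and Serpina3g (8.30% of all), and GAAA, any 2 bases, GAAA, the ISRE motif of interferon-regulated genes, in those of Serpinb6a and Serpinb9 (3.44%). In Serpinb6a, 1 of 2 GAS matches overlaps the ISRE match. GAGGAAGT (PU.1, 3.20%) and GGGA, any base, TTTCC (NF-kB, 0.411%) had no match in the 8 windows.

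Serpinb2 was the most abundant tested serpin in MacB1-N and in every MacB2 group, and it was close to absent from MacA. MacB3-3wk libraries had 13.6, 13.2 and 3.80 FPKM and MacB3-2wk libraries 35.2, 10.1 and 14.9 FPKM. MacB1-N had 315, 172 and 66.3 FPKM. Over the MacB2 series, naive lungs gave 634, 665 and 169 FPKM, tumours of 2 weeks 502, 388 and 289 FPKM, and tumours of 3 weeks 94.6, 179 and 205 FPKM. Every MacB1 and MacB2 library thus lay above every MacB3 library, and within the MacB2 series replicate 3 of MacB2-N lay below all 3 libraries of MacB2-2wk. MacA-2wk libraries were listed at 0, 0 and 0.167 FPKM, and MacA-N libraries at 2.88, 5.48 and 0 FPKM.

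Serpinb10 had nearly the same order of groups with a tighter spread. MacB3-3wk had 1.00, 0.947 and 0.144 FPKM, and MacB3-2wk had 1.93, 2.43 and 0.836 FPKM. MacB1-N had 148, 118 and 115 FPKM. The MacB2 libraries had 212, 171 and 217 FPKM in naive lungs, 130, 117 and 82.7 FPKM at 2 weeks and 25.4, 40.9 and 26.3 FPKM at 3 weeks. These 3 MacB2 groups did not overlap, and each later one was lower than the one before it. MacA-2wk was listed at 0.373, 0.369 and 0 FPKM and MacA-N at 0.101, 0 and 0 FPKM.

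Serpinb8, the neighbour on the far side, had a different pattern. It had 6.15, 9.27 and 11.6 FPKM in MacB3-3wk, 9.57, 14.9 and 13.7 FPKM in MacB3-2wk, and 2.93, 4.59 and 1.64 FPKM in MacB1-N. MacB2 libraries had 14.7, 13.9 and 13.3 FPKM in naive lungs, 18.1, 19.2 and 32.3 FPKM at 2 weeks and 14.2, 18.2 and 17.96 FPKM at 3 weeks. It was therefore low in the CD11c+ MacB1-N cells, where Serpinb2 and Serpinb10 were high, and kept a level in MacB3 where both of them were low. MacA-2wk had 0.966, 0.956 and 2.61 FPKM and MacA-N had 1.22, 0.129 and 0.463 FPKM.

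**Figure D1:**
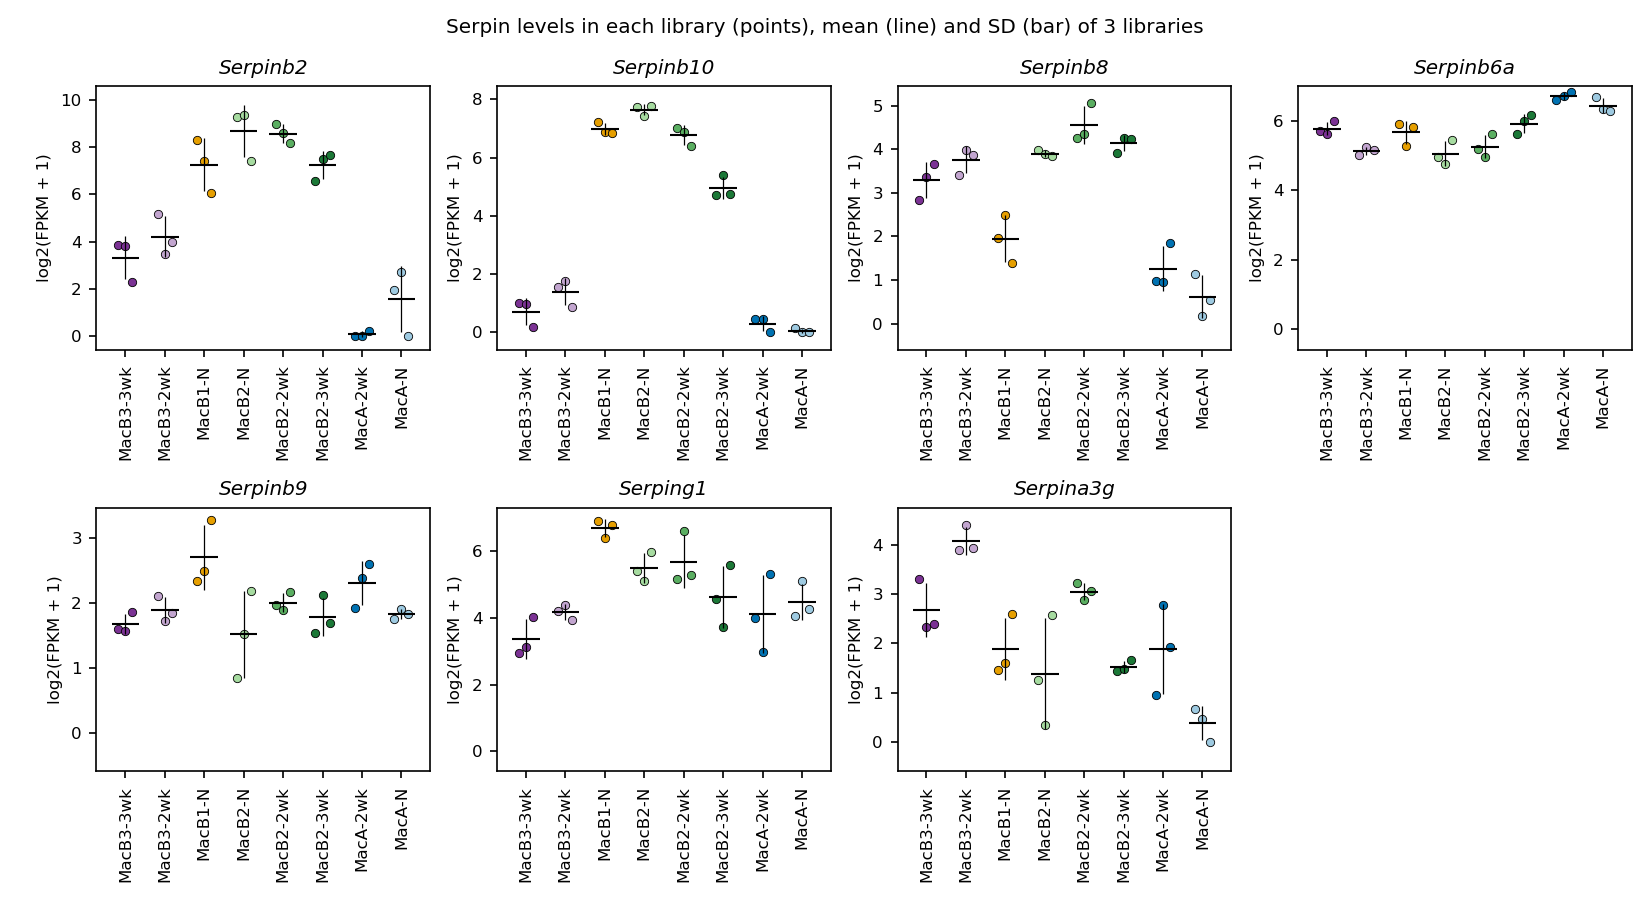
Level of each of the 7 serpins on the log2(FPKM + 1) scale (y axis) in the 8 groups (x axis); points are libraries, horizontal lines are means and vertical bars are the SD of 3 libraries. Serpinb2 and Serpinb10 are high in MacB1-N and the MacB2 groups, Serpinb6a is highest in MacA, and Serpina3g is highest in MacB3-2wk.

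Differences below are between group means of log2(FPKM + 1) from 1 limma fit over all 24 libraries, each with its standard error (SE), n = 3 in each group, and with Benjamini-Hochberg adjustment over 17156 genes. Calls required an adjusted p below 0.05 together with a difference of 2-fold or more. On this scale the change of a gene with low levels is understated, and against groups listed at or near 0 the difference sets no upper bound on the fold. Over 12 comparisons the 7 genes gave 27 calls out of 84. Of all tested genes, the share called ran from 0.315% in MacB3-3wk against MacB3-2wk to 23.7% in MacB1-N against MacA-N. Groups recur among the 12 comparisons, so the 84 are not separate tests.

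CD64-high MacB3 cells had far less of both Serpinb2 and Serpinb10 than the CD11c- MacB2 cells from the same week of tumour growth. At 2 weeks Serpinb2 averaged 20.1 ± 13.3 FPKM in MacB3-2wk and 393 ± 107 FPKM in MacB2-2wk (SD, n = 3 each), a difference of -4.37 (SE 0.69, limma adjusted p = 3.67e-04). Serpinb10 averaged 1.73 ± 0.813 FPKM in MacB3-2wk and 110 ± 24.4 FPKM in MacB2-2wk, a 63.5-fold difference of means, with a difference of -5.37 (SE 0.26, limma adjusted p = 2.82e-10). These were the 2 of 7 genes called in that comparison, both lower, where 7.36% of all tested genes were called (3.15% higher and 4.21% lower). Within lanes 2, 3 and 7 the difference of Serpinb2 ran from -5.13 to -3.80 and that of Serpinb10 from -5.51 to -5.10. Markers of other cell types differed between the same groups. Summed over 6 classical monocyte markers, MacB3-2wk had 1301 to 2468 FPKM and MacB2-2wk 3223 to 3490 FPKM, with 5 of 6 called lower. Summed over 7 interstitial macrophage markers, MacB3-2wk had 8512 to 11320 FPKM and MacB2-2wk 1345 to 1636 FPKM, with 5 of 7 called higher. All of these markers were above 0 in these libraries, and their part in the Serpinb2 and Serpinb10 differences was not tested. In bulk samples such as these, fewer cells of a type and less RNA per cell cannot be told apart.

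The same 2 genes were called lower at 3 weeks, of 7, with 2.64% of tested genes called (1.61% higher and 1.03% lower). Serpinb2 averaged 10.2 ± 5.54 FPKM in MacB3-3wk and 160 ± 57.8 FPKM in MacB2-3wk (SD, n = 3 each), a difference of -3.93 (SE 0.69, limma adjusted p = 0.00218). Serpinb10 averaged 0.697 ± 0.480 FPKM in MacB3-3wk and 30.9 ± 8.68 FPKM in MacB2-3wk, a difference of -4.24 (SE 0.26, limma adjusted p = 1.84e-08). All 3 lanes showed the lower level in both genes. Of the same markers, 4 of 6 for classical monocytes were called lower and 5 of 7 for interstitial macrophages higher. Both time points share no library, so each comparison has its own 6 libraries. Both were, however, taken from the same fit with 1 estimate of the spread per gene, and both used the same lanes.

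The other 5 members were not called between MacB3 and MacB2. At each time, 5 of 7 members, Serpinb2 and Serpinb10 among them, had an unadjusted p under 0.05 in limma. That cut was passed by 4220 of 17156 tested genes at 2 weeks and by 2655 at 3 weeks. Lack of overlap between libraries, given here for single members, was not counted over all tested genes. Serpina3g was at 13.7, 20.1 and 14.2 FPKM in MacB3-2wk against 8.30, 6.31 and 7.29 FPKM in MacB2-2wk, with no overlap, but the difference of 1.02 (SE 0.48) had an adjusted p of 0.198 in limma. At 3 weeks Serpina3g was at 8.89, 3.99 and 4.24 FPKM in MacB3-3wk against 1.71, 1.77 and 2.17 FPKM in MacB2-3wk, again with no overlap (1.15, SE 0.48, limma adjusted p = 0.251). Serping1 was at 17.6, 20.0 and 14.2 FPKM in MacB3-2wk against 35.4, 96.3 and 38.3 FPKM in MacB2-2wk, also without overlap, with a difference of -1.52 (SE 0.53, limma adjusted p = 0.0785), and at 3 weeks the groups overlapped (-1.27, SE 0.53, limma adjusted p = 0.250). Serpinb8, whose libraries did not overlap at either time, Serpinb6a and Serpinb9 had differences of -0.79, -0.11 and -0.11 at 2 weeks and -0.86, -0.15 and -0.11 at 3 weeks, none called.

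Between 3 and 2 weeks, MacB3 cells had none of the 7 genes called by limma (0.315% of tested genes called, 0.28% higher and 0.035% lower). Of the 7, 3 had an unadjusted p under 0.05 in limma, as did 1475 of 17156 tested genes. Those 3 were Serpina3g (8.89, 3.99 and 4.24 FPKM in MacB3-3wk against 13.7, 20.1 and 14.2 FPKM in MacB3-2wk), Serpinb6a (50.9, 48.6 and 63.0 FPKM in MacB3-3wk against 31.2, 37.0 and 34.8 FPKM in MacB3-2wk) and Serpinb10. Neither Serpina3g nor Serpinb6a overlapped between the groups, and their adjusted p values in limma were 0.298 and 0.279.

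Along tumour growth in MacB2 cells, Serpinb10 fell and was the only 1 of 7 members called. At 3 weeks it averaged 30.9 ± 8.68 FPKM in MacB2-3wk and 200 ± 25.4 FPKM in MacB2-N (SD, n = 3 each), a difference of -2.68 (SE 0.26, limma adjusted p = 1.07e-06), and it was lower in 3 of 3 lanes (-3.01 to -2.03). It was the only 1 of 7 called there, where 14.7% of tested genes were called (9.67% higher and 5.04% lower). Serpinb10, Serpinb2 and Serpinb6a had an unadjusted p under 0.05 in limma, as did 5601 of 17156 tested genes. Against MacB2-2wk, Serpinb10 in MacB2-3wk was lower by a difference of -1.81 (SE 0.26, limma adjusted p = 0.00111). It was again the only 1 of 7 called (4.34% of tested genes, 3.06% higher and 1.28% lower). This call was lost with a pseudocount of 0.1 (adjusted p = 0.0781) and with only these groups in the fit (adjusted p = 0.0529). Serpinb10, Serpina3g and Serpinb6a had an unadjusted p under 0.05 in limma, as did 3703 tested genes. MacB2-2wk against MacB2-N had 0 of 7 called by limma (1.88% of tested genes, 1.66% higher and 0.227% lower), with Serpina3g and Serpinb10 at an unadjusted p under 0.05. That cut was passed by 2547 of 17156 tested genes. Marker sums moved along the same series. For 5 nonclassical monocyte markers MacB2-3wk had 436 to 833 FPKM and MacB2-N 2105 to 2892 FPKM, with 5 of 5 called lower, and 3 of 6 classical monocyte markers were called lower and 1 higher. Of 8 fibroblast markers 7 were called higher, with 732 to 1126 FPKM in MacB2-3wk and 25.4 to 67.0 FPKM in MacB2-N. The part of these markers in the Serpinb10 difference was not tested. Tumour and naive samples also differed in the lobes taken, which cannot be told apart from the tumour.

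Serpinb2 itself was not called along tumour growth. MacB2-3wk differed from MacB2-N by -1.45 (SE 0.69, limma adjusted p = 0.152), with -2.73 and -1.89 in lanes 2 and 3 and 0.27 in lane 7. The lane 7 value rests on MacB2-N replicate 3, which had 169 FPKM against 634 and 665 FPKM in replicates 1 and 2. In MacB1-N and MacB2-N, replicate 3 was lowest both in Serpinb2 and in the summed level of 7 epithelial markers, all of them above 0 in at least 1 library. That sum was 12859, 7748 and 3077 FPKM in MacB1-N, where Serpinb2 was 315, 172 and 66.3 FPKM. In MacB2-N it was 10295, 7923 and 3114 FPKM, and in MacA-N, where Serpinb2 was 2.88, 5.48 and 0 FPKM, it was 649, 5322 and 2272 FPKM. The part of these markers in the Serpinb2 level was not tested, and in MacB2-2wk the sum was 396 to 2445 FPKM while Serpinb2 stayed at 289 to 502 FPKM.

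Serpinb6a moved the other way in MacB2. It had 48.3, 62.3 and 70.8 FPKM in MacB2-3wk against 30.0, 25.99 and 42.9 FPKM in MacB2-N, with no overlap and an adjusted p of 0.00654 in limma, but its difference of 0.87 (SE 0.21) was under the 2-fold minimum. Serpina3g reached 8.30, 6.31 and 7.29 FPKM in MacB2-2wk, against 1.37, 0.259 and 4.91 FPKM in MacB2-N and 1.71, 1.77 and 2.17 FPKM in MacB2-3wk. The groups did not overlap in either direction of time, yet neither difference was called, at 1.66 (SE 0.48, limma adjusted p = 0.0850) for MacB2-2wk against MacB2-N and -1.52 (SE 0.48, limma adjusted p = 0.0655) for MacB2-3wk against MacB2-2wk. Leaving out MacB2-N replicate 3 gave the first a call (2.26, limma adjusted p = 0.0159). The second was called with quantile normalization (-1.65, limma adjusted p = 0.0369) and with only these groups in the fit (-1.52, limma adjusted p = 0.0395).

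In MacA cells, 0 of 7 genes were called by limma between MacA-2wk and MacA-N (0.787% of tested genes called, 0.729% higher and 0.0583% lower), with Serpina3g and Serpinb2 at an unadjusted p under 0.05. That cut was passed by 1852 of 17156 tested genes. Serpina3g was at 0.923, 5.88 and 2.79 FPKM in MacA-2wk against 0.589, 0.374 and 0 FPKM in MacA-N, without overlap (1.51, SE 0.48, limma adjusted p = 0.205). Whether the 2-week difference in MacB2 differed from that in MacA was tested as an interaction, and 0 of 7 genes were called (0.221% of tested genes, 0.134% higher and 0.0874% lower), with Serpinb10 alone at an unadjusted p under 0.05. That cut was passed by 1692 tested genes. The matching interaction of MacB3 with MacB2 over 2 to 3 weeks also called 0 of 7, and 0 of all genes, with 1121 genes and again Serpinb10 alone of the 7 at an unadjusted p under 0.05.

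**Figure D2:**
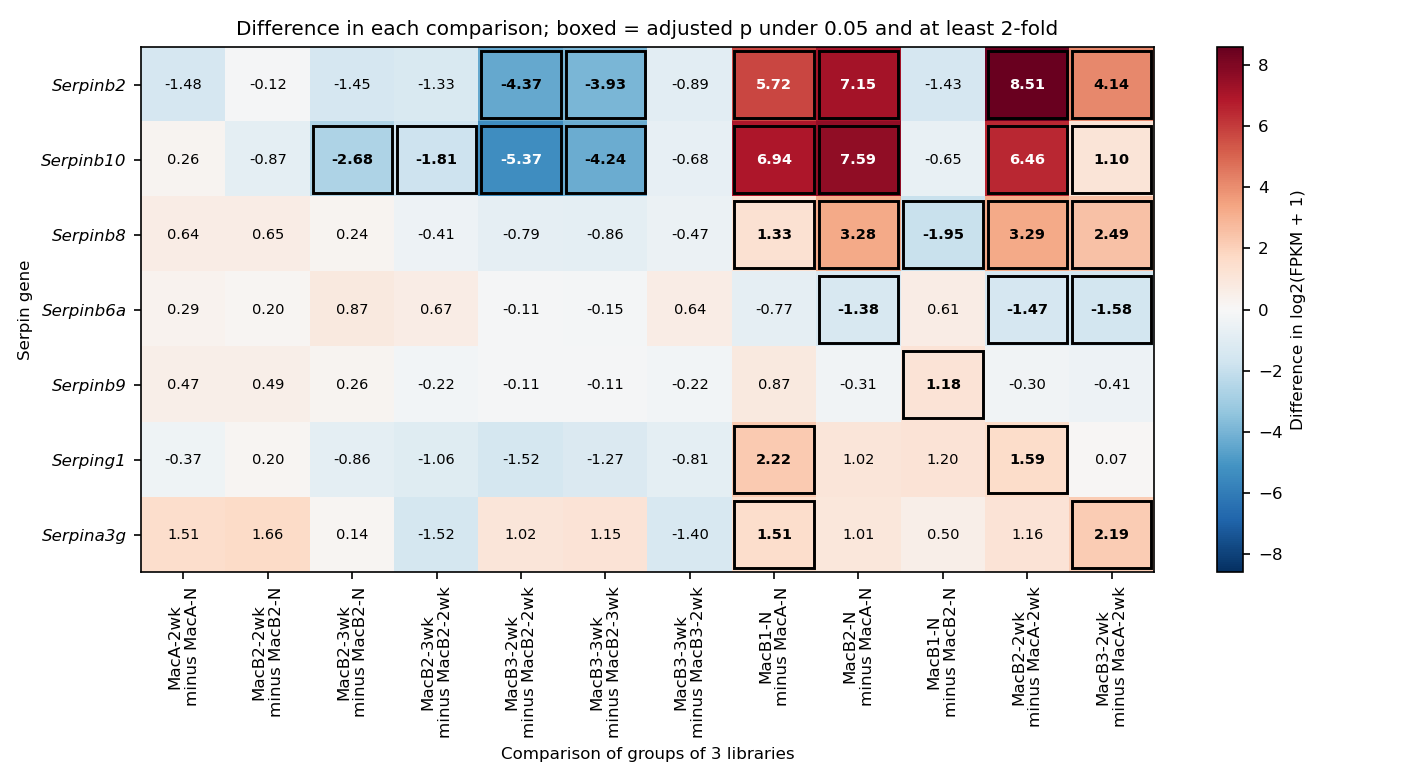
Difference in mean log2(FPKM + 1) (colour and printed value) of the 7 serpins (rows) in 12 comparisons (columns), with boxes around called differences. The 2 called members in each comparison of MacB3 with MacB2 are Serpinb2 and Serpinb10, and calls of tumour against naive cells of 1 population are limited to Serpinb10 in MacB2-3wk.

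Between populations of naive lung, MacB1-N had 5 of 7 genes higher than MacA-N and 0 lower, where 23.7% of tested genes were called (15% higher and 8.71% lower). Serpinb10 (6.94, SE 0.26) and Serpinb2 (5.72, SE 0.69) led them, with limma adjusted p values of 1.06e-12 and 2.69e-06. Serping1 averaged 104 ± 19.3 FPKM in MacB1-N and 22.5 ± 9.54 FPKM in MacA-N (SD, n = 3 each), a difference of 2.22 (SE 0.53, limma adjusted p = 0.00331). Serpinb8 (1.33, SE 0.32, limma adjusted p = 0.00383) and Serpina3g (1.51, SE 0.48, limma adjusted p = 0.0220) were the other 2. The Serpinb8 call was lost under 3 of 13 alternatives (differences from 0.51 to 2.40, adjusted p up to 0.0548) and that of Serpina3g under 4 of 13 (differences from 0.56 to 3.09, adjusted p up to 0.113). MacB2-N against MacA-N had 3 higher, Serpinb10 (7.59, SE 0.26), Serpinb2 (7.15, SE 0.69) and Serpinb8 (3.28, SE 0.32), and 1 lower, with 20.9% of tested genes called (10.7% higher and 10.2% lower).

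The lower one was Serpinb6a, which was highest in MacA. MacB2-N averaged 33.0 ± 8.83 FPKM and MacA-N 86.2 ± 13.4 FPKM (SD, n = 3 each), a difference of -1.38 (SE 0.21, limma adjusted p = 5.40e-05). At 2 weeks it was also lower in MacB2-2wk (-1.47, SE 0.21) and MacB3-2wk (-1.58, SE 0.21) than in MacA-2wk, where it had 96.6, 105 and 113 FPKM. No MacB library, at 25.99 to 70.8 FPKM, reached the lowest MacA library, at 76.4 FPKM.

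MacB1-N and MacB2-N, both from naive lung and run on the same lanes, differed in 2 of 7 genes (5.21% of tested genes called, 3.5% higher and 1.7% lower). Serpinb8 averaged 3.06 ± 1.48 FPKM in MacB1-N and 13.96 ± 0.736 FPKM in MacB2-N (SD, n = 3 each), a difference of -1.95 (SE 0.32, limma adjusted p = 6.49e-04), lower in 3 of 3 lanes. Serpinb9 was at 4.05, 4.66 and 8.72 FPKM in MacB1-N against 0.802, 1.87 and 3.57 FPKM in MacB2-N, a difference of 1.18 (SE 0.30, limma adjusted p = 0.0187), higher in 3 of 3 lanes. The Serpinb9 call was lost under 6 of 13 alternatives, with adjusted p values from 0.0025 to 0.288 and differences from 0.60 to 1.58, and without MacB1-N replicate 3 it was 0.90 (limma adjusted p = 0.112). Outside MacB1-N, Serpinb9 stayed between 0.802 and 5.06 FPKM in every library. Dendritic cell and monocyte markers also differed between MacB1-N and MacB2-N. Summed over 8 dendritic cell markers, MacB1-N libraries had 768 FPKM or more and MacB2-N libraries 46.7 FPKM or less. Of the 7 of these tested, 4 were called higher in MacB1-N and 0 lower. Of 6 classical monocyte markers, 6 were called lower in MacB1-N. The part of these markers in the Serpinb8 and Serpinb9 differences was not tested.

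At 2 weeks, MacB2-2wk had 4 of 7 genes higher and 1 lower than MacA-2wk (17.7% of tested genes called, 9.57% higher and 8.15% lower). MacB3-2wk also had 4 higher and 1 lower (14.5%, 7.2% higher and 7.28% lower). Serpinb8 averaged 23.2 ± 7.87 FPKM in MacB2-2wk, 12.7 ± 2.78 FPKM in MacB3-2wk and 1.51 ± 0.951 FPKM in MacA-2wk (SD, n = 3 each). Its differences from MacA-2wk were 3.29 (SE 0.32, limma adjusted p = 3.70e-07) in MacB2-2wk and 2.49 (SE 0.32, limma adjusted p = 1.23e-05) in MacB3-2wk. Serpina3g was called in MacB3-2wk (2.19, SE 0.48, limma adjusted p = 0.00267) and not in MacB2-2wk (1.16, SE 0.48, limma adjusted p = 0.0886). Its difference between the 2 MacB groups was the 1.02 given above, which was not called. Serpinb10 in MacB3-2wk was called at levels of 0.836 to 2.43 FPKM, against 0 to 0.373 FPKM in MacA-2wk, and 4 of 13 alternatives lost that call.

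Serping1, the secreted C1 inhibitor, was highest in MacB1-N and varied within groups. It had 6.68, 7.70 and 15.5 FPKM in MacB3-3wk, 17.6, 20.0 and 14.2 FPKM in MacB3-2wk and 120, 83.0 and 110 FPKM in MacB1-N. MacB2 libraries had 41.8, 33.2 and 62.1 FPKM in naive lungs, 35.4, 96.3 and 38.3 FPKM at 2 weeks and 22.9, 12.2 and 47.6 FPKM at 3 weeks, while MacA-2wk had 15.1, 6.96 and 39.1 FPKM and MacA-N 15.7, 33.4 and 18.3 FPKM. MacB1-N lay above the naive groups MacB2-N and MacA-N in every library, but all neighbours in the order of its 8 group means overlapped.

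Libraries high in Serping1 were often high in 6 endothelial markers, all of them above 0 in at least 1 library. Their sum was 357, 352 and 447 FPKM in MacB1-N, the group with the highest Serping1. In MacB2-2wk it was 412 FPKM in replicate 2 against 141 and 154 FPKM in replicates 1 and 3, and in MacB2-N it was 379 FPKM in replicate 3 against 111 and 103 FPKM. MacA-2wk replicate 3 had 202 FPKM, against 38.8 and 39.2 FPKM in its fellow replicates. In MacB2-3wk, where Serping1 ran from 12.2 to 47.6 FPKM, the sum was only 44.5 to 60.6 FPKM. The part of these markers in Serping1 was not tested.

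The call of Serping1 in MacB2-2wk against MacA-2wk was among the least stable. Its difference was 1.59 (SE 0.53, limma adjusted p = 0.0348), and 5 of 13 alternatives lost it, with adjusted p values from 0.0042 to 0.238. Without MacB2-2wk replicate 2 the difference was 1.13 (limma adjusted p = 0.178), and without MacA-2wk replicate 3 it was 2.19 (limma adjusted p = 0.0042). The call in MacB1-N against MacA-N was kept under all 13 alternatives, with differences from 2.01 to 2.53.

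Urokinase, the protease that Serpinb2 inhibits (gene Plau), was highest in MacB3, the MacB population with the least Serpinb2. MacB3-3wk had 38.4, 42.9 and 43.0 FPKM and MacB3-2wk 32.2, 43.5 and 43.9 FPKM, while MacB2 libraries had 0.320, 1.81 and 2.04 FPKM in naive lungs, 7.08, 5.66 and 10.1 FPKM at 2 weeks and 22.1, 21.4 and 18.7 FPKM at 3 weeks. It rose by 2.27 (SE 0.29, limma adjusted p = 5.62e-05) in MacB3-2wk over MacB2-2wk and by 3.27 (SE 0.29, limma adjusted p = 4.38e-07) in MacB2-3wk over MacB2-N. MacB3-3wk against MacB2-3wk was not called (0.97, SE 0.29, limma adjusted p = 0.0826). In MacA, where Serpinb2 had its lowest means, Plau was at 7.64, 5.51 and 8.52 FPKM in MacA-2wk. It was at 5.00, 5.29 and 3.90 FPKM in MacA-N, and at 2.06, 1.51 and 4.02 FPKM in MacB1-N. MacA means of both Serpinb2 and Plau thus lay below those of MacB3. Plaur, the urokinase receptor, was measured at 57.5 to 204 FPKM in every library.

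**Figure D3:**
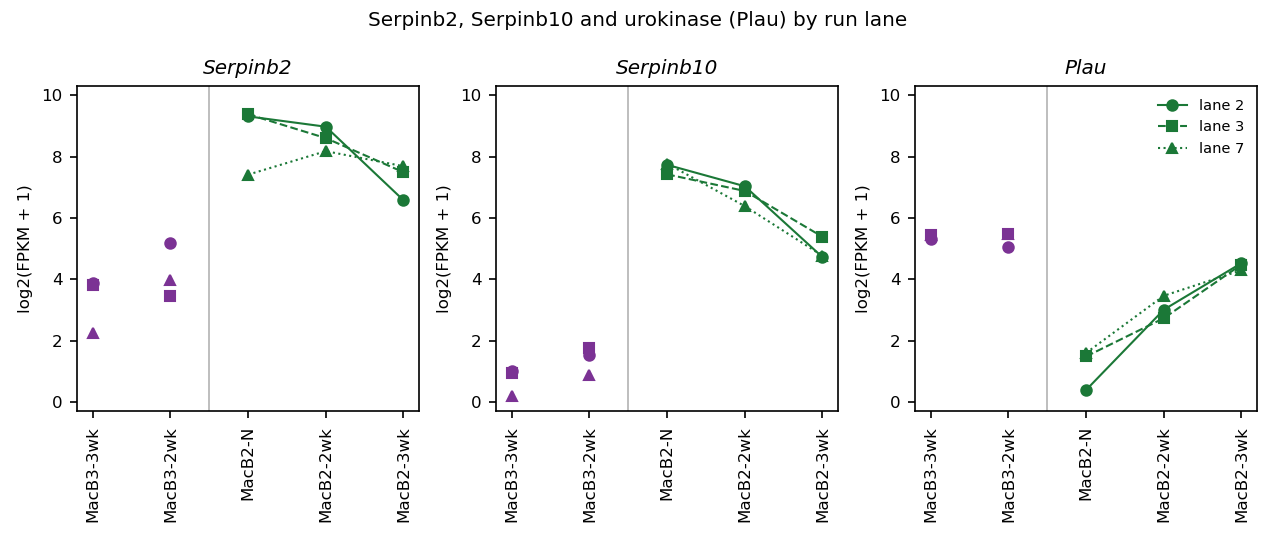
Levels of Serpinb2, Serpinb10 and Plau on the log2(FPKM + 1) scale (y axis) in MacB3 (purple) and MacB2 (green) groups (x axis); circles, squares and triangles are run lanes 2, 3 and 7, and lines join MacB2 libraries of 1 lane. Serpinb10 is lower and Plau higher at 3 weeks than in naive lungs in all 3 MacB2 lanes, while Serpinb2 is lower at 3 weeks than in naive lungs in lanes 2 and 3 and not in lane 7.

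Among 22 proteases and partners that serpins act on, 12 were tested. In MacB2-3wk against MacB2-N, 6 rose and 1 fell, with a median difference of 1.02 against 0.00 over all tested genes. Of all tested genes, 14.7% were called there (9.67% higher and 5.04% lower). Ctsl, a lysosomal cathepsin, averaged 203 ± 20.9 FPKM in MacB2-3wk and 29.4 ± 8.18 FPKM in MacB2-N (SD, n = 3 each), and Ctsk, another, rose by 5.02 (SE 0.60, limma adjusted p = 8.67e-06). Fibroblast markers summed to 732 to 1126 FPKM in MacB2-3wk and 25.4 to 67.0 FPKM in MacB2-N, and their part in these differences was not tested. MacB3-2wk against MacB2-2wk had 4 higher and 2 lower (median -0.41 against -0.08), where 7.36% of all tested genes were called (3.15% higher and 4.21% lower). Those called included Ctsl (1.58, limma adjusted p = 6.82e-04) and Prtn3, proteinase 3 of neutrophil granules (-2.15, limma adjusted p = 0.00571). Furin averaged 306 ± 63.2 FPKM in MacB3-2wk and 133 ± 17.6 FPKM in MacB2-2wk. Gzmb, the target of Serpinb9, was at 5.22 FPKM or less in every library. At these low levels it was called lower in MacB3-2wk than MacB2-2wk (-1.57, limma adjusted p = 0.0239). It was also called lower in MacB2-3wk than MacB2-N (-1.32, limma adjusted p = 0.0345). Against MacA of the same time it was called higher in MacB2-N (1.36, limma adjusted p = 0.0220) and MacB2-2wk (1.48, limma adjusted p = 0.0152). Comparisons that share MacB2 libraries are not separate evidence for one another.

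Inhibitors of other families were listed as 20 genes, of which 15 were tested. In MacB2-3wk against MacB2-N, 9 rose and 1 fell, with a median of 1.81 against 0.00 over all tested genes, of which 14.7% were called. Timp1, an inhibitor of metalloproteinases, rose by 4.79 (SE 0.54, limma adjusted p = 4.28e-06) and Spint1, an inhibitor of cell-surface serine proteases, by 3.74 (SE 0.32, limma adjusted p = 2.77e-07). The part of the fibroblast markers, higher in MacB2-3wk than in MacB2-N, in these differences was not tested. Between MacB3-2wk and MacB2-2wk, 4 rose and 2 fell (7.36% of all tested genes called), with Spint1 higher (2.69, limma adjusted p = 2.08e-05) and Slpi, a secreted elastase inhibitor, lower (-1.70, limma adjusted p = 0.00743). Of 15 coagulation and fibrinolysis genes, 7 rose and 2 fell in MacB2-3wk against MacB2-N (median 0.64 against 0.00, 14.7% of all tested genes called).

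Interferon gamma response genes were listed as 20 symbols with 21 tested entries. In MacB2-2wk against MacB2-N, 5 rose and 0 fell (median 0.43 against 0.03), and in MacA-2wk against MacA-N, 4 rose and 0 fell (median 0.79 against 0.05). Of all tested genes, 1.88% (1.66% higher) and 0.787% (0.729% higher) were called in these comparisons. Cxcl9, an interferon-induced chemokine, averaged 59.0 ± 3.92 FPKM in MacB2-2wk and 3.71 ± 0.983 FPKM in MacB2-N (SD, n = 3 each). MacB2-3wk against MacB2-2wk had 0 higher and 4 lower (median -0.77 against 0.00), where 4.34% of all tested genes were called (1.28% lower). Serpina3g, which is not on that list, had its highest mean at 2 weeks in MacB3, MacB2 and MacA, the 3 populations sampled more than 1 time, but none of those differences in time was called.

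Over the 8 group means, each centred on its own average, the gene nearest to Serpinb2 among 5745 candidates was Ifitm6, at a root mean square distance of 0.60 on the log2 scale, followed by Plac8 (1.10) and Nxpe4 (1.19). Serpinb10 was nearest to Nxpe4 (0.91), Pglyrp1 (1.03) and Emr4 (1.03), and its distance to Serpinb2 was 1.02. Serpinb8 was nearest to Wfdc17 (0.30), Ifi204 (0.36), which has near-identical copies, and Smox (0.36). For Serpinb6a these were Fbxo22 (0.17), Mmd (0.18) and Ccng1 (0.20), and for Serpinb9 they were Rnf141 (0.10), Csrp1 (0.15) and Impdh1 (0.16). Serping1 was nearest to Timp3 (0.15), Tbx3 (0.18) and Emp2 (0.21), and Serpina3g to Batf2 (0.39), Ly6a (0.53) and Gbp2 (0.54). Of the pairs among the 7, Serpinb6a and Serpinb9 had the smallest distance (0.57) and Serpinb2 and Serpinb6a the largest (3.55). This distance is small for any genes that vary little between groups, so it does not show a shared pattern. Serpinb6a had its highest mean in MacA-2wk and Serpinb9 in MacB1-N.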

How the data were processed

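RNA of 24 sorted samples was sequenced from libraries made with a NuGen Ovation FFPE kit, per the labels. The submitters' processing notes list FastQC, TopHat2 version 2, Cufflinks 2.0.2 and mm10, and the authors' deposited values were taken as FPKM from these notes, since the header names no unit. Loci in the deposited table differ from GRCm38, so positions come from GENCODE M21 by Ensembl ID. Sources used here do not give the use of strand. Absolute depth is unknown, and a listed 0 can be a failed estimate: 688 genes, of which 12 code for protein, had a library at 0 although their group averaged 20 FPKM or more.

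Deposited FPKM values became log2(FPKM + 1), without rescaling. Testing covered 17156 genes whose mean reached 1 FPKM in some group, two-sided, in limma 3.58.1 under R 4.3.3 (a mean for each of 8 groups, 16 residual degrees of freedom, mean-variance trend). The step was tested on simulated data. Alternatives were pseudocounts of 0.1 and 5, no filter, quantile normalization, 75th percentile scaling, a replicate block, a fit of only the groups compared, and leaving out each replicate. Serpinb6a, Serpinb9 and Serpina3g have close paralogs that could share reads.

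Members, gene lists and tests were chosen with earlier results of these data known. Genes named are the 7 members, other serpins called in at least 1 comparison, up to 3 called genes with the largest difference for each list and comparison, and the 3 nearest genes for each member among 5745 with a group mean of 20 FPKM or more. Plaur, Gzmb and Furin, where outside that rule, were chosen after their values were seen. Replicate numbers are run lanes in MacB groups. Deviations of same-numbered MacB libraries from their group means had a median correlation of 0.0134. It ran from -0.0726 to 0.210 over 21 pairs of libraries, with 1 over 0.1. Results on 1 other tested gene are not reported here.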

Additional observations from a re-analysis of the deposited data

How the results depend on the processing

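The 27 called differences were computed again under 13 alternatives each, 351 values: 325 stayed called, 26 lost the call, 0 changed direction, and 19 of the 27 stayed called throughout. The replicate block, which follows the run lane in MacB groups, changed no member call, and moved only the gene count of the MacB2 with MacA interaction beyond 1.5 times (24 against 38).

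Members called became 0 with a pseudocount of 0.1 and 2 with quantile normalization in MacB2-3wk against MacB2-2wk (1 reported), 3 with a pseudocount of 5 and 3 with quantile normalization in MacB1-N against MacA-N (5 reported), 1, 1 and 0 with a pseudocount of 5, quantile normalization and only the compared groups in MacB1-N against MacB2-N (2 reported), and 3 with only the compared groups in MacB3-2wk against MacA-2wk (5 reported). Leaving out 1 replicate gave 0 to 1 members in MacB2-2wk against MacB2-N, 1 to 2 in MacB2-3wk against MacB2-N, 1 to 2 in MacB1-N against MacB2-N and 4 to 6 in MacB1-N against MacA-N.

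Genes called moved as follows. A pseudocount of 0.1 gave 238 in MacA-2wk against MacA-N (135 reported), 493 in MacB2-3wk against MacB2-2wk (744), 19 in MacB3-3wk against MacB3-2wk (54) and 89 in the MacB2 with MacA interaction. A pseudocount of 5 gave 54 in MacA-2wk against MacA-N, 148 in MacB2-2wk against MacB2-N (323), 1343 in MacB2-3wk against MacB2-N (2524), 417 in MacB2-3wk against MacB2-2wk, 713 in MacB3-2wk against MacB2-2wk (1263), 2303 in MacB1-N against MacA-N (4067), 2101 in MacB2-N against MacA-N (3583), 502 in MacB1-N against MacB2-N (893), 1812 in MacB2-2wk against MacA-2wk (3040), 1585 in MacB3-2wk against MacA-2wk (2484) and 19 in the first interaction. Only the compared groups gave, in the same order without both naive comparisons with MacA, 4, 37, 1680, 208, 648, 268, 1819, 1634 and 13, with 26 in MacB3-3wk against MacB3-2wk and 4 in the interaction of MacB3 with MacB2 (0). No filter gave 23 and 1 in these interactions, and quantile normalization 27 in MacB3-3wk against MacB3-2wk.

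Leaving out 1 replicate gave 87 to 244 genes in MacA-2wk against MacA-N, 136 to 292 in MacB2-2wk against MacB2-N, 449 to 753 in MacB2-3wk against MacB2-2wk, 297 to 384 in MacB3-3wk against MacB2-3wk (453), 11 to 38 in MacB3-3wk against MacB3-2wk, 606 to 1393 in MacB1-N against MacB2-N, 17 to 57 in the MacB2 with MacA interaction and 0 to 3 in that of MacB3 with MacB2. The causes were not tested. Quantile normalization moved the median of all genes by -0.15 in MacB1-N against MacA-N and -0.11 in MacB1-N against MacB2-N, and the share of calls that were higher to 47.2% (63.2% reported) and 50.1% (67.3%). That share became 74.6% (87.9%) in MacB2-2wk against MacB2-N, 52.7% (65.7%) in MacB2-3wk against MacB2-N, 56.2% (42.8%) in MacB3-2wk against MacB2-2wk and 77.8% (88.9%) in MacB3-3wk against MacB3-2wk.

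Serpina3g in MacB1-N against MacA-N lost its call without MacB1-N replicate 3 (limma adjusted p = 0.113) or MacA-N replicate 3 (0.0828). Levels near 0 limit what can be read of Serpinb2 and Serpinb10 in MacA.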

Other observations

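Of the 9 tested serpins outside the 7, Serpinb1a, an inhibitor of neutrophil proteases, was high in MacA, at 32.7 ± 7.39 FPKM in MacA-2wk and 42.4 ± 8.42 FPKM in MacA-N (SD, n = 3 each). It was lower by -3.80 in MacB1-N and -3.36 in MacB2-N than in MacA-N, and by -3.01 in MacB2-2wk and -4.66 in MacB3-2wk than in MacA-2wk, all 4 called in limma. Serpinh1, the collagen chaperone HSP47, and Serpinf1, the secreted factor PEDF, rose by 3.50 and 4.99 in MacB2-3wk over MacB2-N. Both are on the list of 8 fibroblast markers, whose sum was 732 to 1126 FPKM in MacB2-3wk and 25.4 to 67.0 FPKM in MacB2-N, and the part of those markers in the result was not tested.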
